A study of Mus musculus with 10 samples.

Results

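The genes described here are 10 genes of the blood-brain barrier: Cldn5, Ocln, Tjp1, Slco1a4, Slc2a1, Abcb1a, Mfsd2a, Slc7a5, Tfrc and Pltp. They were chosen by their known roles and found by symbol, and all 10 were among the 30406 genes listed in every library. Their raw counts of unique molecular identifiers (UMIs, single captured RNA molecules) were followed through endothelial cells, mural cells, glia and neurons of the medial prefrontal cortex, and through both social ranks. The samples were 10 droplet single-cell RNA libraries from male C57BL/6N mice over 2 months old, 5 from rank 1 (dominant) and 5 from rank 4 (subordinate) animals of a tube-test hierarchy. No transgene or drug was named in the labels. Tissue was taken 1 day after the last test and digested with papain at 37 °C for 60 min. A library pooled 2 or 3 mice, so the pool was the unit of replication, and p-values measure the spread between pools.

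The blood-brain barrier is formed by the endothelial cells of brain vessels. Tight junctions seal the gaps between these cells, so that solutes have to pass through the cells themselves on carriers and receptors, while efflux pumps return many foreign compounds to the blood. Barrier properties are induced in endothelium by Wnt and Norrin signals from the surrounding tissue, and by contact with pericytes and astrocytes. The transport machinery is known to differ along the vessel tree, with arteries, capillaries and veins using different sets of carriers.

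Libraries held between 4442750 and 29278466 UMIs, and 46285 of 64937 deposited barcodes were kept. Libraries written by the same software version shared between 6 and 104 barcodes in a pair, at most 1.70% of the smaller library. In their headers, replicates 4 and 5 carry software version 4.0.0, the other libraries 3.1.0. Cells were clustered without the 10 genes and without 66 further barrier genes, and clusters were named from markers. The endothelial class held 4403 cells (median 1254 UMIs), with all 9 of its markers detected, among them Flt1, Pecam1, Cdh5 and Tek. The endothelial share of a library's kept cells averaged 10.2% ± 2.16 for rank 1 and 10.1% ± 1.64 for rank 4 (SD, n = 5 libraries each), a difference within the spread (two-sided exact permutation p = 0.929; smallest possible 0.00794). Markers of other classes were found in the endothelial sums of both ranks. Summed erythroid markers reached 390 to 6318 of every 1000000 UMIs in rank 1 and 527 to 5973 in rank 4. Oligodendrocyte markers reached 272 to 1298 and 401 to 1203, and pericyte markers 345 to 1033 and 350 to 2030. Of the 5 ependymal markers 1 was at 0, as were 2 of the 5 choroid plexus and 2 of the 5 neutrophil markers. Their part in the results below was not tested.

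The stretches before the transcription start of 4 of the genes are shown because 3 of them, Slco1a4, Mfsd2a and Tfrc, fell together in the arterial-like cells described below, while Cldn5 did not pass the test there. The choice was made after their values were seen. RefSeq promoter windows on GRCm38.p6 (250 bases before to 50 after the start) matched 9 of the 10 genes by symbol; Slc7a5 had no entry. The 250 bases before the start are printed 5′ to 3′ on the gene's strand. Capitals mark the letters ACAAT (SOX), ACGTG (hypoxia response core) and GGGCGG (GC box) on either strand, the motifs found within them; the hypoxia response core and the GC box contain no part of each other.
Cldn5 (chr16:18776597-18776846, strand +): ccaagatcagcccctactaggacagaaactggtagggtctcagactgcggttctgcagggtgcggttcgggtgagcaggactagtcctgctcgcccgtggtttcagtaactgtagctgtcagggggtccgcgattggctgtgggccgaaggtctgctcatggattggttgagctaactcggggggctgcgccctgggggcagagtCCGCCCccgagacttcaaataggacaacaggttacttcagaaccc
Slco1a4 (chr6:141856221-141856470, strand -): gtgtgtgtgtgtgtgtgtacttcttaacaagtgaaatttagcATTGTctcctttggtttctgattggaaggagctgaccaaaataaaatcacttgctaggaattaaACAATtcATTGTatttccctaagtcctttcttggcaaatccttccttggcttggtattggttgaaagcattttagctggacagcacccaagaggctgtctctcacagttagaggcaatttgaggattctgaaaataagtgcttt
Mfsd2a (chr4:122961189-122961438, strand -): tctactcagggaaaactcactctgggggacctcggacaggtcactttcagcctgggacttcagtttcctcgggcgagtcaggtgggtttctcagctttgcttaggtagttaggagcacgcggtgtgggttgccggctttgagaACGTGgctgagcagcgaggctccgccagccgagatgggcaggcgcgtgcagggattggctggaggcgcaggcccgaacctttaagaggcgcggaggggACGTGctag
Tfrc (chr16:32608646-32608895, strand +): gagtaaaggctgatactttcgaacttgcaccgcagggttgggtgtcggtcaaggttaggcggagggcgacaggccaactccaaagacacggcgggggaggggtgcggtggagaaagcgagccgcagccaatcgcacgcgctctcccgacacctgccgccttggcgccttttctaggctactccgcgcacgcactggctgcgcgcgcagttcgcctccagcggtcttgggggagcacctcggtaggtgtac

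The Cldn5 stretch held 1 GC box, and 35.7% of 32851 RefSeq windows of 300 bases held at least 1. Slco1a4 held 3 SOX motifs, which 31.0% of all windows held, and no GC box. Its GC content was 40.7%, below the median of 52.7% over all windows. Mfsd2a held 2 copies of the hypoxia response core, present in 19.6% of all windows. The Tfrc window held 1 copy, which does not lie wholly inside the printed stretch and is not capitalised there; RefSeq lists a second start for Tfrc. Of the 9 matched genes, 7 held the ETS core GGAA, left in lower case because 96.0% of all windows hold it. None of the 9 held the TCF/LEF motif ATCAAAG (3.73% of all windows). Only Abcb1a held the FOX motif TGTTTAC (3.65%); its RefSeq start lies outside the gene's extent in the annotation used below. The TATA box TATAAA (13.6%) was found in Slc2a1 and Pltp. A match of letters is a description of the sequence, not of a bound site.

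Levels are given as CPM, the UMIs of a gene per 1000000 UMIs summed over the cells of a class in a library, and are compared within a gene only. The mean level of each of the 10 genes was highest in endothelial-like cells among the 10 classes present in enough libraries, against 9.96% of the 12923 genes counted (at least 10 CPM in the mean of 1 class). In 9 of the 10 the endothelial level was above that of the next class in every library that held both. The exception was Mfsd2a. Endothelial cells were 10.1% ± 1.81 of cells and held 7.37% ± 2.22 of all UMIs (SD, n = 10 libraries). Of the UMIs of the 10 genes they held between 32.7% and 91.6%.

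**Figure D1:**
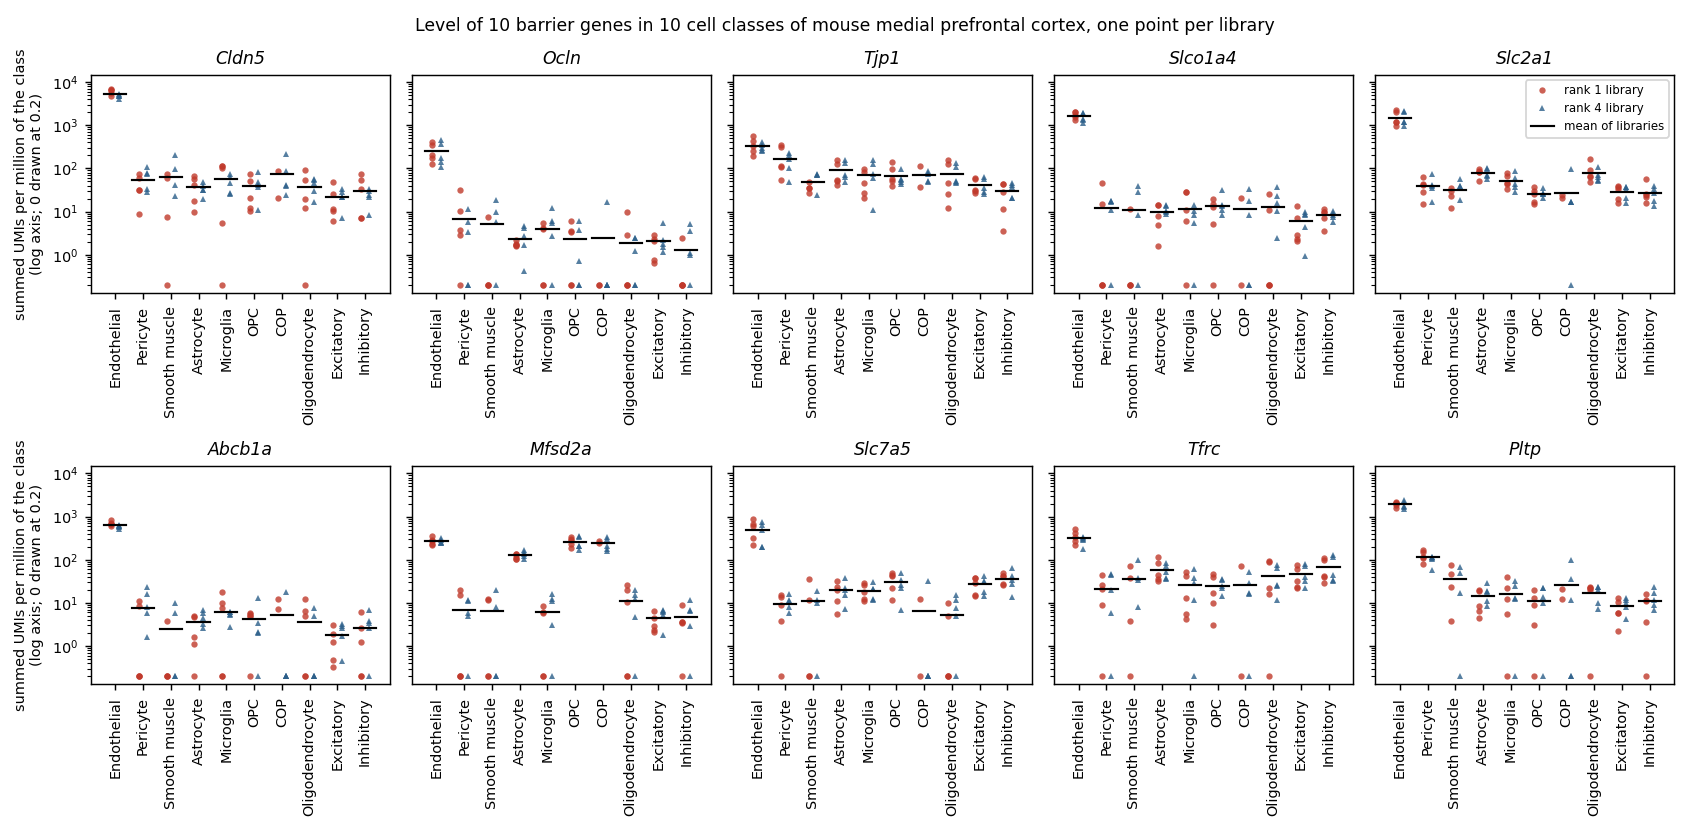
Level of the 10 barrier genes in 10 cell classes, as CPM on a log axis, with values of 0 drawn at 0.2; circles are rank 1 libraries, triangles rank 4 libraries and bars the mean over libraries (OPC, oligodendrocyte precursor; COP, committed oligodendrocyte precursor). The endothelial points lie above all others for 8 genes, Tjp1 overlaps with pericytes, and Mfsd2a has means of 270 in endothelial cells and 263 in OPC.

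Of the junction genes, Cldn5 encodes claudin-5, the main sealing claudin of brain endothelium. It lies at chr16:18776847-18778262 (GRCm38, plus strand) and overlaps no other annotated gene. In rank 1 its endothelial level was 6427, 4765, 6678, 6900 and 5742 CPM in replicates 1 to 5. In rank 4 it was 4130, 5190, 5001, 4844 and 4683. The ranges overlapped through replicate 2 of rank 1, and the other 4 rank 1 libraries were above all of rank 4. The next class, committed oligodendrocyte precursors, averaged 74.2 on 41 UMIs in all, and the classes below it ran down to 21.4 in excitatory neurons. Cldn5 was higher in endothelial cells in 7 of 7 libraries with both classes (mean log2 ratio 6.52 ± 1.18, SD; two-sided exact sign-flip permutation p = 0.0156, the smallest 7 libraries allow). With Benjamini-Hochberg adjustment over the 90 neighbouring pairs of classes the p was 0.0938, since few libraries held the precursors. Its levels outside endothelium stood at 0.41% to 1.46% of the endothelial level. The 9 endothelial markers, measured the same way, had class medians of 0.49% to 1.84%, and Cldn5 lay inside the range of these markers in each class.

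After each cell was thinned to 1000 UMIs, 95.7% of 2909 endothelial-like cells held a Cldn5 UMI (95.3% of all 4403 cells without thinning). Excitatory neurons, which should lack the gene and have a median of 2431 UMIs, held one in 3.17% of 14488 cells (7.67% unthinned). Thinning left out 1494 endothelial cells and 2065 excitatory neurons with fewer UMIs. Counted together, a thinned endothelial cell held UMIs of a median of 5 of the 10 genes. Of these cells 60.3% held at least 5 genes and 0.413% held none, whereas 80.3% of excitatory neurons held none.

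Ocln encodes occludin, a membrane protein of tight junctions (chr13:100496507-100552718, minus strand, no overlapping gene). Rank 1 libraries had 201, 342, 400, 171 and 124 CPM in replicates 1 to 5, and rank 4 libraries 177, 462, 378, 145 and 107. In both ranks replicates 2 and 3 were the highest and replicate 5 the lowest. The highest library was 4.30 times the lowest, and the ranges of the ranks overlapped. The next class, pericytes, averaged 6.86 on 10 UMIs in all, so Ocln was close to undetected outside endothelium (higher in endothelial cells in 10 of 10 libraries; exact sign-flip permutation p = 0.00195, adjusted over the 90 pairs 0.0195). A UMI was found in 17.9% of thinned endothelial cells (26.2% unthinned) and in 0.159% of excitatory neurons (0.55% unthinned).

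Tjp1 encodes ZO-1, a scaffold that ties junction proteins to the actin skeleton in many cell types (chr7:65296165-65527781, minus strand). Its locus overlaps 3 predicted genes, Gm44792, Gm44794 and Gm44795, of which Gm44795 is antisense; the strand setting of the counting is not given in the sources used here. Endothelial values were 195, 327, 252, 555 and 444 in rank 1 and 268, 292, 248, 410 and 350 in rank 4. Replicates 4 and 5 were the 4 highest libraries. Unlike Cldn5 and Ocln, Tjp1 was spread over all classes. Pericytes averaged 169 ± 103, astrocytes 90.3 ± 46.8 and oligodendrocytes 75.6 ± 51.1 (SD, n = 10). Endothelial cells exceeded pericytes in 10 of 10 libraries (exact sign-flip permutation p = 0.00195, adjusted 0.0195). Pericytes exceeded astrocytes in 9 of 10 and astrocytes exceeded oligodendrocytes in 9 of 10 (both exact p = 0.00586, adjusted 0.0439). Oligodendrocytes and microglia, at 70.2, did not differ beyond their spread (exact p = 0.713). Endothelial cells held 32.7% of Tjp1 UMIs.

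Among the transporters, Slco1a4 encodes an organic anion carrier of brain capillaries (chr6:141805440-141856199, minus strand). Its endothelial level was 1591, 2087, 2071, 1746 and 1295 in rank 1 and 1321, 1971, 1888, 1389 and 1139 in rank 4. Replicates 2 and 3 were the highest of both ranks, and the ranges of the ranks overlapped. All other classes averaged at most 13.2, or 0.42% to 0.87% of the endothelial level, inside the range of the endothelial markers in 8 of the 9 classes and below it in smooth muscle cells (0.75% against a lowest marker of 0.79%). The gene was higher in endothelial cells than in oligodendrocyte precursors, the next class, in 10 of 10 libraries (mean log2 ratio 7.21 ± 1.49, SD; exact sign-flip permutation p = 0.00195, adjusted 0.0195).

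Slc2a1 encodes the glucose transporter GLUT1, which carries glucose across the barrier and is also found on glia (chr4:119108711-119137983, plus strand, overlapping Mir1957a and the antisense predicted genes Gm12867 and Gm12868). Rank 1 values were 1202, 1993, 2205, 1212 and 973, and rank 4 values 1217, 2104, 2051, 1197 and 947. Both ranks gave nearly the same series, high in replicates 2 and 3 and lower in replicates 1, 4 and 5. Astrocytes averaged 80.2 ± 18.2 and oligodendrocytes 77.5 ± 35.0, which did not differ beyond their spread (exact p = 0.563). These were 5.53% and 5.70% of the endothelial level, against medians of 0.67% and 0.83% for the endothelial markers in the same classes. The endothelial level exceeded that of astrocytes in 10 of 10 libraries (mean log2 ratio 4.18 ± 0.26, SD; exact sign-flip permutation p = 0.00195, adjusted 0.0195).

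Abcb1a encodes P-glycoprotein, the efflux pump that returns many drugs to the blood (chr5:8660077-8748575, plus strand, overlapping Gm42684 and the antisense Gm42686). Its endothelial level was 670, 698, 691, 819 and 607 in rank 1 and 565, 653, 601, 605 and 510 in rank 4. This was the steadiest of the 10 genes across libraries, with a coefficient of variation of 13.3%. The ranges of the ranks overlapped. Every other class averaged at most 7.48. Of the 50-base windows in the last 500 bases of its annotated transcripts, 18.5% also occurred in its paralog Abcb1b, so reads there do not tell the copies apart. Abcb1b itself averaged 1.45 in endothelial cells and was highest in microglia, at 16.9. The other 9 genes shared no such window with another gene.

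Mfsd2a encodes the carrier of lysophosphatidylcholine-bound docosahexaenoic acid, known in endothelium for holding back vesicle transport (chr4:122946850-122961188, minus strand, no overlapping gene). Its level did not mark endothelium alone. Endothelial values were 270, 231, 220, 350 and 282 in rank 1 and 239, 263, 241, 281 and 324 in rank 4. In oligodendrocyte precursors they were 286, 189, 232, 344 and 301 in rank 1 and 207, 207, 166, 355 and 342 in rank 4. The precursors were the higher class in 5 of 10 libraries, and their ratio to endothelial cells ran from 0.687 to 1.27 with a median of 1.02. The mean log2 ratio of endothelial cells over precursors was 0.07 ± 0.26 (SD, n = 10; exact sign-flip permutation p = 0.400), which does not show that the levels are equal. Committed oligodendrocyte precursors averaged 243 ± 66.4 (n = 7) and astrocytes 127 ± 21.3 (n = 10).

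Mature oligodendrocytes averaged 10.9 ± 9.46 (SD, n = 10), below astrocytes in 10 of 10 libraries (exact sign-flip permutation p = 0.00195, adjusted 0.0195). After thinning, a Mfsd2a UMI was found in 23.8% of endothelial cells, 22.6% of precursors, 21.3% of committed precursors, 12.2% of astrocytes and 0.614% of excitatory neurons. Without thinning the shares were 32.8%, 36.1%, 38.1%, 19.2% and 1.71%. In precursors Mfsd2a stood at 96.4% of its endothelial level, while Cldn5 in the same cells stood at 0.75% and Abcb1a at 0.66%. Endothelial cells held 32.8% of all Mfsd2a UMIs.

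Slc7a5 encodes LAT1, the light chain of the carrier for large neutral amino acids (chr8:121881150-121907694, minus strand, with the antisense predicted gene Gm20388 over it). Its endothelial level was 607, 676, 862, 320 and 214 in rank 1 and 497, 747, 628, 202 and 193 in rank 4. The 4 libraries of replicates 4 and 5 were all below the 6 libraries of replicates 1 to 3. Inhibitory neurons came next, at 36.7 ± 14.1, followed by oligodendrocyte precursors at 31.0 ± 15.7 and excitatory neurons at 27.3 ± 10.9 (SD, n = 10). The endothelial level exceeded that of inhibitory neurons in 10 of 10 libraries (mean log2 ratio 3.62 ± 0.52, SD; exact sign-flip permutation p = 0.00195, adjusted 0.0195). Neurons held it at 6.00% (excitatory) and 8.36% (inhibitory) of the endothelial level, above the marker medians of 0.49% and 0.69% there, and endothelial cells held 57.3% of its UMIs.

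Tfrc encodes the transferrin receptor, which brings iron across the barrier and serves iron uptake in most cells (chr16:32608920-32632794, plus strand). Endothelial values were 219, 276, 331, 507 and 406 in rank 1 and 176, 292, 313, 306 and 330 in rank 4. The lowest 2 libraries were the replicates numbered 1. Inhibitory neurons averaged 67.7 ± 40.9 and astrocytes 59.3 ± 28.0, which did not differ beyond their spread (exact p = 0.553). The endothelial level was above that of inhibitory neurons in 10 of 10 libraries (mean log2 ratio 2.38 ± 0.69, SD; exact sign-flip permutation p = 0.00195, adjusted 0.0195). Every class held at least 7.14% of the endothelial level, and endothelial cells held 37.3% of Tfrc UMIs.

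Pltp encodes phospholipid transfer protein (chr2:164839518-164857711, minus strand); the gene Ctsa lies over it on the other strand. Its endothelial level was 1893, 1605, 2222, 2103 and 2120 in rank 1 and 1505, 1747, 1689, 2460 and 2162 in rank 4. The ranks overlapped over most of their range. Pericytes were next, at 113 ± 31.1, and higher than smooth muscle cells in 8 of 8 libraries (exact p = 0.00781, adjusted 0.0541). The pericyte level was 5.89% of the endothelial one, above 8 of the 9 endothelial markers in pericytes (0.73% to 3.06%) and below Emcn (56.1%). Endothelial cells held 88.1% of Pltp UMIs.

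**Figure D2:**
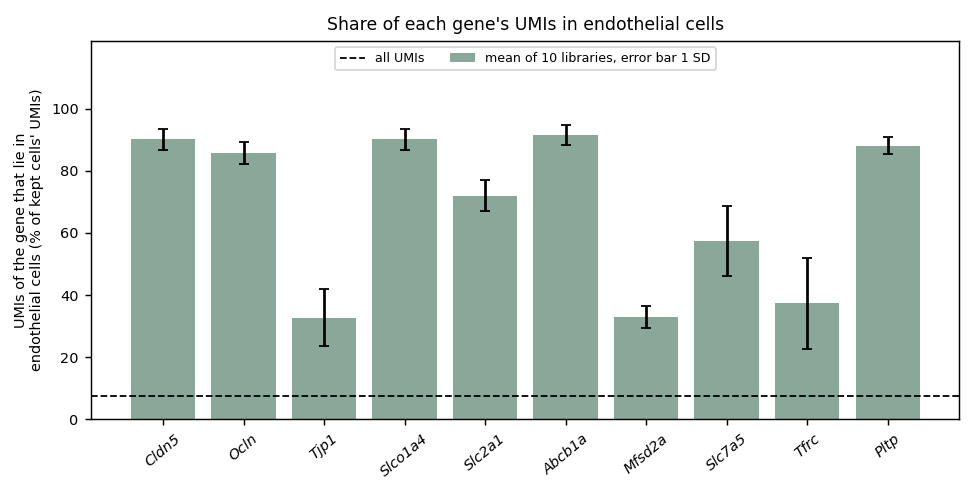
Share of each gene's UMIs that lay in endothelial-like cells, in percent of the UMIs of all kept cells; bars are means of 10 libraries, error bars 1 SD, and the dashed line is the endothelial share of all UMIs (7.37%). Tjp1, Mfsd2a and Tfrc have the low bars, at 32.7%, 32.8% and 37.3%.

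The wider barrier list held 66 genes, of which 60 reached the level needed for the comparison of classes, and 39 of these (65.0%, against 9.96% of all genes) were highest in endothelial-like cells. Signal and transcription factor genes of barrier induction had 13 of 15 highest there, among them Sox17 (356 CPM) and Foxq1 (403). Solute carriers had 12 of 17, including Slc7a1 (704), a carrier of cationic amino acids, and Slc16a1 (396), a carrier of lactate. Junction genes had 7 of 13 and efflux pumps 3 of 6. Receptors and vesicle genes had 4 of 9. Members of the list that peaked elsewhere included Lrp1 in oligodendrocyte precursors (511 against 29.3 in endothelial cells) and Slc22a8 in pericytes (367 against 358). These counts describe a list chosen for endothelium.

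Genes whose levels over the 95 library and class sums were most like those of the members, by Pearson's r of log2(CPM + 1) among 12923 genes, included Flt1 and Ly6c1, markers that named the endothelial class. The sums share libraries, so r is a description. For Cldn5 they were Ly6a (r = 0.89), Flt1 (0.89) and Srarp (0.88), and for Slco1a4 Ly6a (0.86), Sox17 (0.86) and Ly6c1 (0.86). Pltp was most like Cgnl1 (0.88), Flt1 (0.87) and Foxq1 (0.86), and Abcb1a like Cyyr1 (0.89), Paqr5 (0.88) and Srarp (0.88). Ocln was most like Igsf5 (0.84), Gm32688 (0.84) and Rassf9 (0.84), and Slc2a1 like Foxl2 (0.87), Igsf5 (0.86) and Unc45b (0.86). For Tjp1 the genes were Flt1 (0.77), Wwc2 (0.73) and Pltp (0.73), for Slc7a5 Nxpe4 (0.79), Bsg (0.76) and Aqp11 (0.74), for Tfrc Sema7a (0.77), Spock2 (0.75) and Col4a3bp (0.75), and for Mfsd2a Klhl5 (0.80), Fam181b (0.80) and Htra3 (0.80). The values for the last 4 genes were lower than for the other 6.

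Endothelial-like cells were divided again, without the 10 genes and the barrier list, to compare vessel zones. One sub-cluster of 258 cells met the rule for arterial-like cells, with 10 of 11 arterial markers detected and Mgp, Gkn3, Fbln5 and Sema3g among its leading genes. A second, of 604 cells, met the rule for venous-like cells on 3 markers but was led by Icam1, Cxcl1 and Cxcl10, genes of inflammation, and it was not compared. No sub-cluster met the rule for capillary-like cells, so the arterial-like cells were set against all 4145 other endothelial-like cells; this choice was made after the sub-clusters were seen. The other cells included 442 in an unnamed sub-cluster that also had Sema3g and Gkn3 among its leading genes, and 135 led by pericyte and smooth muscle genes. They also included 117 cells led by neuronal genes (Meg3, Grin2b), 76 by astrocyte genes (Slc1a3, Ptprz1) and 47 by immune genes (Lyz2, Csf1r). In 7 libraries with at least 20 cells of both kinds, 5 of the 10 genes passed the test, against 11.6% of 6816 genes tested (edgeR quasi-likelihood test paired by library, adjusted p at most 0.05 over all genes). Lower in the arterial-like cells were 4 of the 10, against 6.32% of all genes, and higher was 1, against 5.24%. Over all genes the test called 357 higher and 431 lower, and DESeq2 with its own scaling 306 higher and 181 lower, with the same counts for the 10 genes, 4 lower and 1 higher. The arterial-like cells were deeper, with a median of 1959 UMIs against 1224. Summed venous markers averaged 836 CPM (442 to 1400) in the arterial-like cells of the 7 libraries and 540 (280 to 1247) in the others, with overlapping ranges. Capillary markers averaged 2449 and 5053, and arterial markers, which named the sub-cluster, 5754 and 734. Whether the differences below go with arterial or with venous markers was not tested.

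Slc7a5, the amino acid carrier, fell most among the 10. In replicates 1, 2 and 5 of rank 1 and 1, 3, 4 and 5 of rank 4 its level in the arterial-like cells was 104, 80.8, 0, 119, 169, 42.0 and 45.0 CPM. In the other endothelial cells of the same libraries it was 652, 789, 229, 518, 709, 214 and 202. The arterial value was lower in 7 of 7 libraries and the ranges did not overlap (log2 fold change −2.63, SE 0.20, edgeR adjusted p = 1.55e-21). The call was kept at −1.59 with clustering resolution 2 and −1.85 with called doublets kept. In the library at 0 the arterial-like sum was taken over 30 cells, and the arterial-like values of the other 6 libraries rest on 2 to 18 UMIs each.

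Tfrc, the iron receptor, was at 94.7, 67.3, 93.4, 35.8, 84.7, 105 and 60.1 in the arterial-like cells of these libraries. It was at 230, 316, 429, 183, 354, 320 and 346 in the others. It was lower in 7 of 7, again without overlap (log2 fold change −2.08, SE 0.20, edgeR adjusted p = 2.92e-15). Resolution 2 gave −1.19 and doublets kept −1.48, both called. The arterial-like values of Tfrc rest on 3 to 10 UMIs each.

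Mfsd2a, the lipid carrier, was at 151, 108, 109, 131, 84.7, 189 and 210 in arterial-like cells against 280, 255, 294, 245, 269, 287 and 330 in the others. It was lower in 7 of 7 libraries with no overlap (log2 fold change −1.12, SE 0.18, edgeR adjusted p = 2.91e-07). It was smaller but still called at resolution 2 (−0.57) and with doublets kept (−0.54). The arterial-like values of Mfsd2a rest on 7 to 16 UMIs each.

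Slco1a4, the organic anion carrier, showed a smaller fall, from a mean of 1580 ± 400 to 1136 ± 156 (SD, n = 7). The arterial-like value was lower in each of the 7 pairs although the ranges overlapped (log2 fold change −0.55, SE 0.11, edgeR adjusted p = 7.47e-05). It was −0.32 at resolution 2 and −0.31 with doublets kept, both called. Slco1a4, Mfsd2a and Tfrc are 3 of the genes whose promoter stretches are printed above. Of the motifs searched for other than GGAA, their windows shared only the hypoxia response core, in Mfsd2a and Tfrc. That core was found in 4 of the 9 matched genes. The others were Slc2a1 and Tjp1, neither of which was called lower in arterial-like cells.

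Slc2a1, the glucose transporter, moved the other way. It was at 2187, 1966, 1571, 1780, 2437, 1470 and 1441 in arterial-like cells and at 1113, 1998, 930, 1186, 1982, 1177 and 917 in the others. The arterial-like value was higher in 6 of 7 libraries, with replicate 2 of rank 1 the exception (log2 fold change 0.42, SE 0.11, edgeR adjusted p = 0.00331). This call was lost without replicate 1 of rank 1 (0.33, adjusted p = 0.0646), without a filter on low counts (0.25, adjusted p = 0.0943) and with stricter cell filters (0.32, adjusted p = 0.169).

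The junction genes did not pass. Cldn5 was at 4797 ± 1419 in arterial-like and 5153 ± 738 in other cells (SD, n = 7; log2 fold change −0.23, SE 0.10, edgeR adjusted p = 0.130), and it was lower in 4 of 7 libraries. It became called lower without replicate 1 of rank 4 (−0.29, adjusted p = 0.0490), without replicate 5 of rank 4 (−0.29, adjusted p = 0.0328), at clustering resolution 2 (−0.26, adjusted p = 0.0157), with stricter cell filters (−0.39, adjusted p = 0.0181) and without a filter on low counts (−0.40, adjusted p = 1.50e-05). Ocln had a log2 fold change of 0.25 (SE 0.16, edgeR adjusted p = 0.397) and Tjp1 of −0.26 (SE 0.15, adjusted p = 0.292). The pump gene Abcb1a was at −0.07 (SE 0.12, adjusted p = 0.839) and Pltp at −0.21 (SE 0.10, adjusted p = 0.187).

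**Figure D3:**
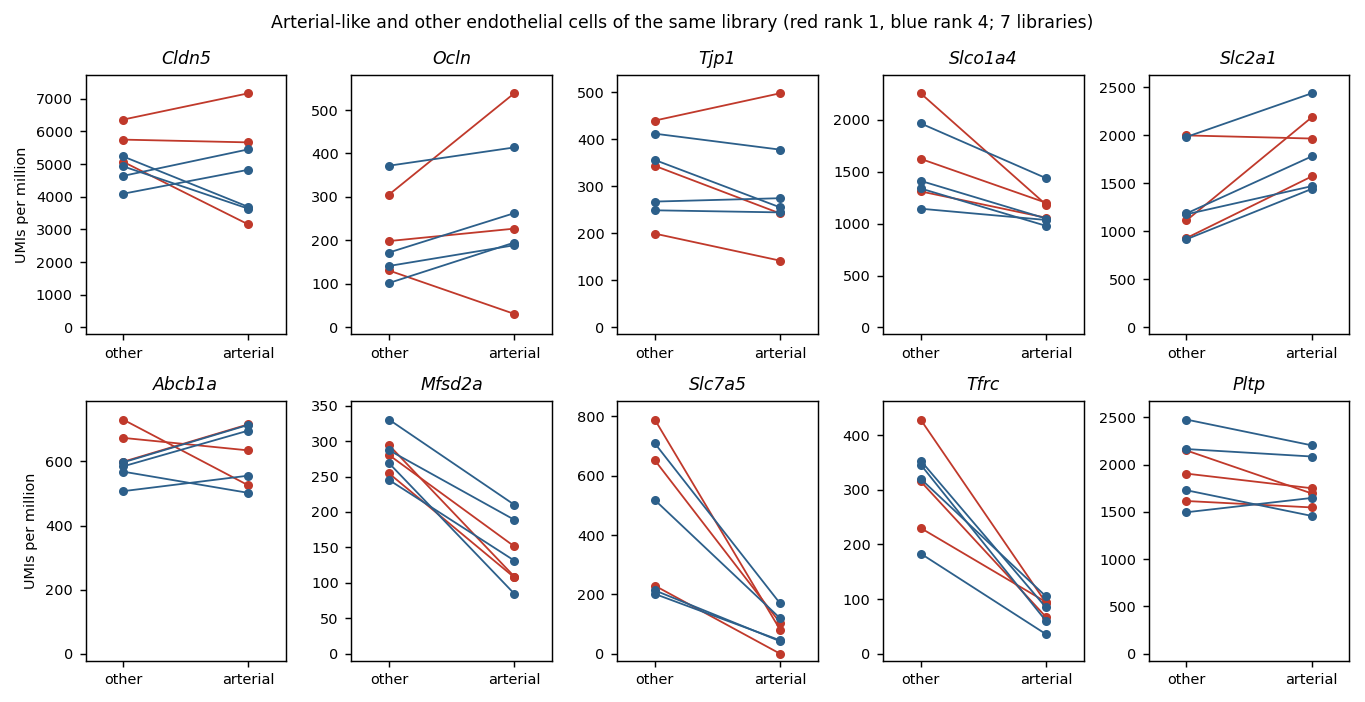
Levels of the 10 genes in arterial-like and other endothelial-like cells, as CPM, with a line joining the 2 values of a library (red, rank 1; blue, rank 4; 7 libraries). All 7 lines of Slc7a5, Tfrc, Mfsd2a and Slco1a4 go down, and 6 of 7 lines of Slc2a1 go up.

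The other barrier genes were tested in the same fit. Of 49 tested genes of the list, 21 passed (11.6% of all genes did), 16 lower and 5 higher in arterial-like cells (6.32% and 5.24% of all genes). Solute carriers had 10 lower and 1 higher of 15 tested, with a median log2 fold change of −1.24 (−0.07 over all genes). The largest fall was that of Slc38a5, a glutamine carrier (−5.59, SE 0.38, edgeR adjusted p = 1.56e-23), followed by Slc16a1, the lactate carrier (−2.52), and Slc7a1, the cationic amino acid carrier (−2.12). These 3 were −3.80, −1.74 and −1.23 at resolution 2, and −3.96, −1.84 and −1.39 with doublets kept. All 10 carriers that fell were nearer to 0 under both settings. Slc3a2, which encodes the heavy chain that pairs with the Slc7a5 product, was at −0.95 (SE 0.13, edgeR adjusted p = 1.64e-08), −0.59 at resolution 2 and −0.49 with doublets kept. The other carriers that fell were Slc22a8 (−1.68), Slco2b1 (−1.51), Slc40a1 (−1.35), Slc38a3 (−1.31), Slc39a8 (−1.24) and Slc39a10 (−0.85, and −0.43 and −0.51 under these settings). Slc6a6, the taurine carrier, rose (0.92, SE 0.11, edgeR adjusted p = 1.15e-11).

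Of the vesicle and receptor genes, Cavin2 (0.86), Cav1 (0.66) and Cavin1 (0.59), which build caveolae, rose. Lrp8 (−1.59) and Lrp1 (−1.52), receptors of the LDL receptor family, fell. Among genes of barrier induction Apcdd1 (−2.12), Notum (−1.08) and Lef1 (−0.65) were among those that fell, and Reck (0.78) rose. None of 9 junction genes and none of 3 efflux pumps passed, against 11.6% of all genes. The calls of Apcdd1, Cavin1, Lef1, Lrp1, Notum and Reck were each lost under at least 1 alternative. At resolution 2 and with doublets kept, Apcdd1 was at −1.22 and −1.26, Lrp8 at −1.087 and −1.002 and Cavin1 at 0.35 and 0.45. Those of the 11 solute carriers, Lrp8, Cav1 and Cavin2 were lost under none of those run. Markers of other classes were also found in these sums. Erythroid markers summed to 255 to 8358 CPM in arterial-like and 543 to 6747 in other cells, oligodendrocyte markers to 417 to 1637 and 244 to 1283, and pericyte markers to 13.5 to 1302 and 364 to 2070. The mean of the pericyte sum was 307 in arterial-like and 855 in other cells; Slc22a8, one of the carriers that fell, had its highest class mean in pericytes. Of the neutrophil markers all 5 were at 0 in arterial-like cells. Their part in the differences was not tested.

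**Figure D4:**
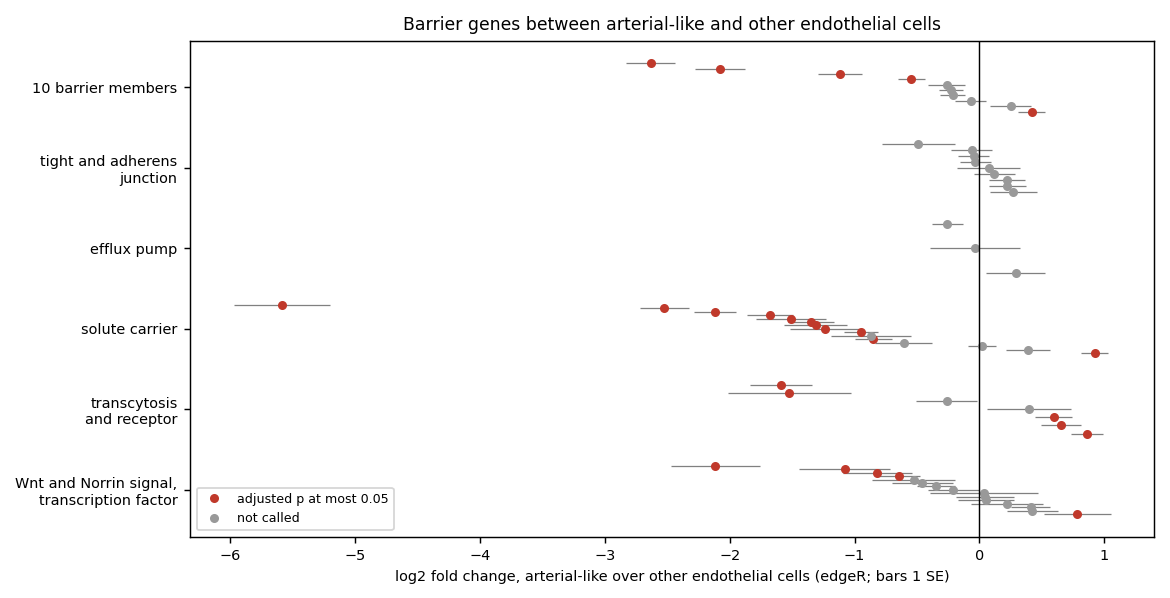
Log2 fold change between arterial-like and other endothelial-like cells for the 10 genes and for the tested genes of the barrier list by group (points; bars 1 SE; red points have an adjusted p of at most 0.05). Carriers extend to the left, down to −5.59 for Slc38a5, and no junction gene or efflux pump is red.

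Levels in endothelial cells also differed between sets of replicate numbers. Between replicates 4 and 5 and replicates 1 to 3, the 2 software versions, 3 of the 10 genes passed the test in endothelial cells, against 24.8% of 9156 genes. All 3 were lower in replicates 4 and 5, against 13.8% of all genes. Slc7a5 averaged 670 ± 125 in replicates 1 to 3 and 232 ± 59.3 in replicates 4 and 5 (SD, n = 6 and 4; log2 fold change −1.70, SE 0.24, edgeR adjusted p = 0.00102). Ocln averaged 327 ± 114 and 137 ± 27.3 (−1.43, SE 0.34, adjusted p = 0.0116), and Slc2a1 1795 ± 459 and 1082 ± 142 (−0.90, SE 0.27, adjusted p = 0.0312). The ranges of the 2 sets did not overlap for Slc7a5, Ocln, Tjp1 and Mfsd2a, 4 of 10 genes, against 19.8% of 9278 genes. Of these, Tjp1 (0.57, SE 0.22, edgeR adjusted p = 0.0715) and Mfsd2a (0.19, SE 0.16, edgeR adjusted p = 0.422) did not pass the test.

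Replicate 1 did not always go with replicates 2 and 3. Slc2a1 was at 1202 and 1217 in the replicates numbered 1, between 1993 and 2205 in replicates 2 and 3, and between 947 and 1212 in replicates 4 and 5. Ocln was at 177 and 201, between 342 and 462, and between 107 and 171 in the same 3 sets. Slco1a4 was at 1321 and 1591, between 1888 and 2087, and between 1139 and 1746. This division into 3 sets was made after the values were seen. Replicates 1 to 3 carry the same software version and the same list of 31053 genes, so these do not separate replicate 1 from replicates 2 and 3. The lowest deposited barcode held 739 and 1037 UMIs in the replicates numbered 1 (rank 1 and rank 4), against 500 or 501 in all other libraries. Their median UMIs per barcode, 2058.5 and 2250, were the highest. The part of these differences was not tested. Between replicates 1 to 3 and replicates 4 and 5, software version, gene list, preparation and sequencing run cannot be told apart.

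In other classes the 2 sets differed by gene. The share of all genes without overlap was counted in endothelial cells only (19.8%). The lack of overlap in the other classes is therefore a description, without a share of all genes beside it. Slc7a5 was lower in replicates 4 and 5 also in excitatory neurons (15.5 against 35.1), inhibitory neurons (23.5 against 45.5) and astrocytes (9.79 against 25.8), without overlap. In smooth muscle cells it was higher there (21.5 against 4.6, on 8 UMIs in all). Mfsd2a was higher in replicates 4 and 5 without overlap in oligodendrocyte precursors (336 ± 23.8 against 214 ± 41.3) as in endothelial cells (309 ± 33.7 against 244 ± 19.2). Slc2a1 was lower without overlap in excitatory neurons (18.0 against 36.1) and inhibitory neurons (17.2 against 34.4). Tjp1 was the higher in replicates 4 and 5 in the mean of every class, by 1.48 to 3.46 times outside endothelium. Tfrc was also higher there in every class, by 2.25 to 6.14 times in the 9 other classes and 1.45 times in endothelial cells. Its ranges did not overlap in 8 of these 9 classes, as in inhibitory neurons (114 ± 13.5 against 36.9 ± 6.49), but overlapped in endothelial cells (387 ± 90.5 against 268 ± 59.3). Whether the ratio differed between endothelial and other cells was not tested.

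**Figure D5:**
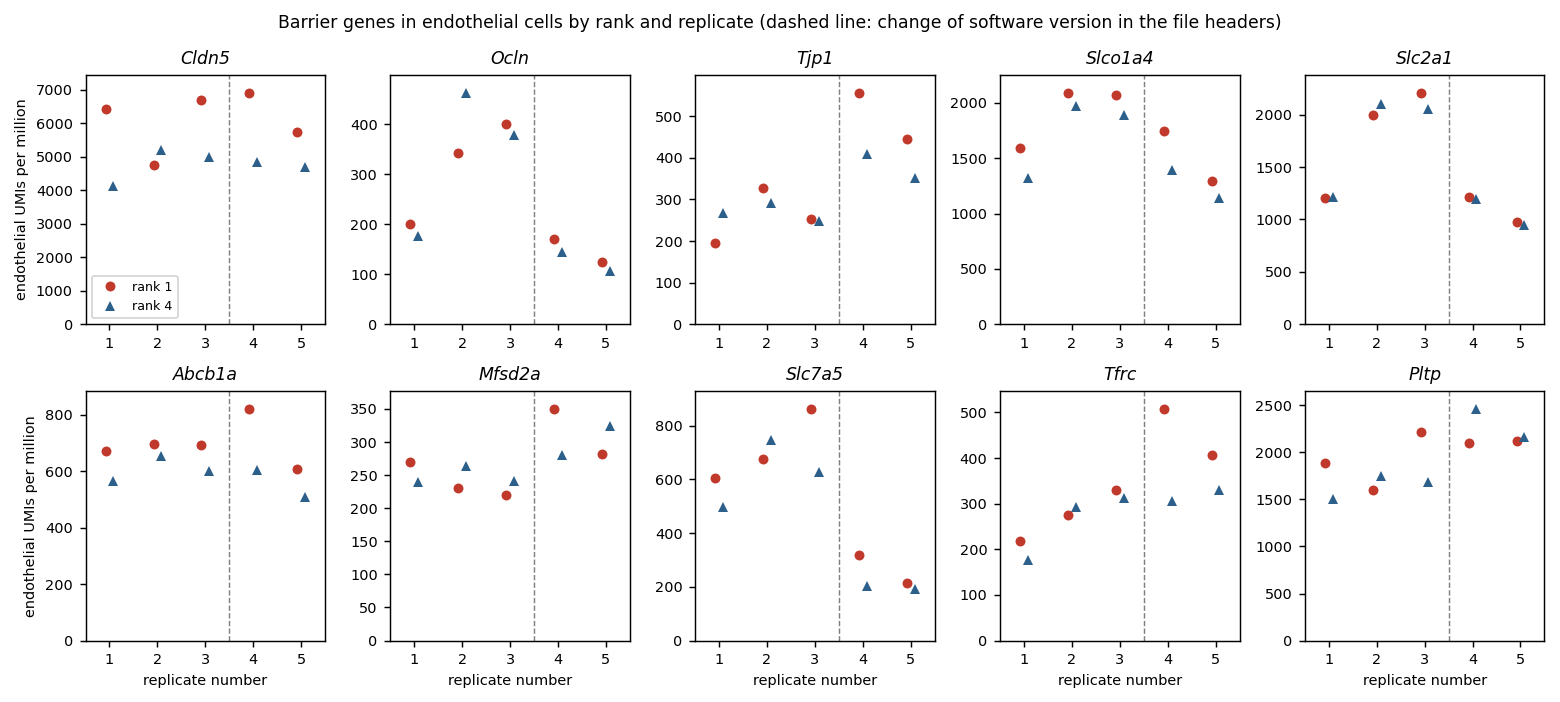
Endothelial level of the 10 genes, as CPM, by replicate number (circles, rank 1; triangles, rank 4; the dashed line marks the change of software version). Same-numbered libraries lie close together for Slc2a1, and Slc7a5 lies between 193 and 320 in replicates 4 and 5.

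The comparison of ranks asked whether the barrier genes differ between dominant and subordinate mice. None of 51 pairs of one of the 10 genes and a class passed, and neither did any gene (0% of 70239 tests over 9 classes; edgeR quasi-likelihood test with the software version as covariate, adjusted p at most 0.05). In endothelial cells none of the 10 genes had an unadjusted edgeR p under 0.05, against 1.76% of 9156 genes, and none had ranges of the 2 ranks that did not overlap, against 0.226% of 9278 genes. The smallest p belonged to Cldn5, at 6102 ± 865 CPM in rank 1 and 4770 ± 404 in rank 4 (SD, n = 5 libraries each). Its log2 fold change was 0.34 (SE 0.20, edgeR adjusted p = 1; unadjusted 0.111). DESeq2 called no gene in endothelial cells and gave Cldn5 0.33 (SE 0.16; unadjusted 0.0428). Over the 9 classes it called 2 genes, both in smooth muscle cells and neither among the 10. Abcb1a followed, at 697 ± 77.3 and 587 ± 53.3 (0.25, SE 0.18, edgeR adjusted p = 1; unadjusted 0.196). Slc7a5 had a log2 fold change of 0.28 (SE 0.22), Tfrc of 0.25 (SE 0.24), Slco1a4 of 0.19 (SE 0.22), Tjp1 of 0.13 (SE 0.21) and Pltp of 0.06 (SE 0.18). Slc2a1 and Ocln were at 0.01 and Mfsd2a at −0.01. On simulated counts of 8773 genes this fit, without the replicate block, recovered 92.3% of 4-fold and 23.3% of 2-fold changes; the blocked fit was not simulated.

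With the replicate number as a block, 72 genes passed in endothelial cells (0.748% of 9621), 19 higher and 53 lower in rank 1, and over all classes 0.403% of 74467 tests; none of the 10 genes passed. Cldn5 then had a log2 fold change of 0.34 (SE 0.12, edgeR adjusted p = 0.193; unadjusted 0.00652), and Tfrc, Abcb1a and Slc7a5 unadjusted values of 0.0380, 0.0466 and 0.0484. These 4 of the 10 stand against 11.2% of all genes under an unadjusted p of 0.05 in that fit. In same-numbered pairs the endothelial CPM was higher in rank 1 in 5 of 5 for Slco1a4 and Abcb1a. It was higher in 4 of 5 for Cldn5, Ocln, Tjp1, Slc7a5 and Tfrc, in 3 of 5 for Slc2a1, and in 2 of 5 for Mfsd2a and Pltp. Pairs were not counted over all genes, so these counts are a description. Of the barrier list none of 54 tested genes passed between ranks in the fit with the version covariate, with a median log2 fold change of 0.12 (−0.0018 over all genes). With 1 library left out this median rose to 0.23 (replicate 1 of rank 1) and 0.22 (replicate 2 of rank 4) or dropped to 0.06 (replicate 3 of rank 1), 0.05 (replicate 5 of rank 4), 0.0207 (replicate 1 of rank 4) and 0.0178 (replicate 4 of rank 1), and it was 0.09 to 0.17 without each of the other 4. Replicates 1 to 3 alone gave 0.00215 and replicates 4 and 5 alone 0.31. The smallest p values in either direction were those of Cavin1 (0.50; unadjusted 0.0340), Slc6a6 (0.41; 0.100) and Cgnl1 (0.33; 0.127), and of Lrp1 (−0.98; 0.0548), Slc1a4 (−0.43; 0.277) and Fzd4 (−0.27; 0.332), each with an edgeR adjusted p of 1. With the block Lrp1, the LDL receptor family member, passed as lower in rank 1 (−1.01, SE 0.23, edgeR adjusted p = 0.0182). Lrp1 averaged 29.3 in endothelial cells and 511 in oligodendrocyte precursors, whose markers summed to 3.28 to 69.9 CPM in rank 1 endothelial cells and 14.4 to 87.0 in rank 4; their part in the difference was not tested.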

How the data were processed

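Single-cell RNA was measured in 10 libraries, 5 per rank. The deposited matrices hold raw UMI counts per gene and barcode, made by the authors with 10x software of version 3.1.0 or 4.0.0 per the file headers. The submitters' processing notes name Cell Ranger 4.0.0 and mm10. Only genes listed by both versions were used. The 10 members and the lists were chosen with earlier results of these data known.

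Cells with at least 500 genes and at most 15% mitochondrial UMIs were kept. Of the barcodes 3095 were called doublets with Scrublet (scanpy 1.11.5) and removed; the caller failed in the 2 replicates numbered 1, where a score of 0.247 was applied. Leiden clusters (leidenalg 0.10.2, resolution 1, 30 components, 15 neighbours) were named from marker lists. Of 46285 cells 1957 stayed unnamed, and perivascular macrophages (115 cells) and fibroblasts (114) were in too few libraries for levels. Marker-based names may divide cells otherwise than the authors did.

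UMIs were summed per library and class with at least 20 cells. Ranks were compared with edgeR 4.0.16 (quasi-likelihood, TMM scaling, low counts filtered) with the version as covariate, and zones with the library as block; p-values were adjusted by the Benjamini-Hochberg method over all genes. The SE given with edgeR values is the absolute log2 fold change divided by the square root of the test's F statistic. It was thus derived from the test and not estimated apart from it. The procedure was tested on simulated counts. Named genes were all 10 members, barrier genes that passed, the 3 smallest p in each direction for the barrier list between ranks, and the 3 most alike genes per member; 1 barrier gene that passed is counted but not reported here by name. Abcb1b is named as the paralog of Abcb1a. Gene positions come from GENCODE M21 on GRCm38, which held 99.7% of the gene identifiers.

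Same-numbered libraries of the 2 ranks deviated together in endothelial cells, with correlations from 0.532 to 0.819 over 5 pairs, so the replicate number was taken to pair them, from the data and not from the labels. Alternatives were a replicate block, no covariate, DESeq2 1.42.0, no count filter, other cell filters, doublets kept, resolution 2, libraries left out, and one added after seeing the data, the sub-clusters nearest to the capillary markers as the arterial-like cells' comparison. Intervals from UMIs would cover counting error only.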

Additional observations from a re-analysis of the deposited data

Results flagged for a closer look

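Tfrc in endothelial cells stood apart in replicate 1 of rank 4, at 176 CPM against 292 in the nearest of the other 4 rank 4 libraries, a gap of 0.754 of the group's range. It was the 1 value marked among 20 groups of 5 libraries, and chance alone marks about 1 in 20 such groups.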

How the results depend on the processing

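The count of members called between ranks was 0 under all alternatives run. Genes called between ranks in endothelial cells numbered 72 with the replicate block and 5 without a filter on low counts, and 0 otherwise; barrier-list genes numbered 1 with the block. The block changed no call of a member, and no other call of a barrier gene; in the data 4 of 5 rank 1 libraries correlated best with the rank 4 library of their own number. Rank differences near 0 changed sign, none of them called. Ocln was at −0.0735 with no covariate, −0.0135 with no filter and −0.19 within replicates 1 to 3. Tjp1 was at −0.14 within replicates 1 to 3. Slc2a1 was at −0.0138 with no covariate, −0.000446 with DESeq2, −0.0149 with no filter and −0.0697 within replicates 1 to 3. Mfsd2a was at 0.0013 with the replicate block, 0.13 within replicates 4 and 5, 0.00439 at 30% mitochondrial UMIs and 0.0528 with doublets kept, and Pltp at −0.0533 within replicates 4 and 5. Leaving out 1 library gave ranges of −0.18 to 0.21 for Ocln, −0.00695 to 0.28 for Tjp1, −0.12 to 0.16 for Slc2a1, −0.11 to 0.0528 for Mfsd2a, −0.0323 to 0.11 for Pltp between ranks, −0.11 to 0.00431 for Abcb1a between zones, and −0.626 to 0.678 percentage points for the rank difference in the endothelial share of cells, which was 1.97 with at least 1000 genes and at most 10% mitochondrial UMIs (0.0823 as reported).

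Across zones 5 or 6 members were called under other settings and 4 to 6 with 1 library left out; barrier-list calls ranged from 16 to 25. All genes called numbered 788 (357 higher, 431 lower), against 487 with DESeq2 (306 higher, 181 lower), 1143 with no filter (272 and 871), 400 with stricter cell filters (222 and 178) and 1333 with doublets kept (544 and 789). Abcb1a was at 0.00811 at 30% mitochondrial UMIs, 0.158 with doublets kept, 0.0573 at resolution 2 and 0.0928 against the sub-clusters nearest to the capillary markers, never called. Without a count filter the median of all genes was −0.48 and Pltp was called lower (−0.38). With at least 1000 genes and at most 10% mitochondrial UMIs the endothelial level had an unadjusted exact permutation p of at most 0.05 against the next class in 4 members in place of 9 (8 after adjustment over the 90 pairs), since only 4 libraries then held enough pericytes and 1 enough committed precursors. The log2 ratios were then 7.55 for Cldn5, 6.58 for Ocln, 8.64 for Abcb1a and 4.37 for Pltp, above the main values, but 0.63 in place of 1.18 for Tjp1. Shares of cells with a UMI rose with depth: for Ocln from 8.77% at 500 to 35.9% at 2000 UMIs. The arterial-like sums rest on 20 to 46 cells a library.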
